A study of Mus musculus with 16 samples.

Results

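CD40 has no enzymatic activity of its own, and its signal is carried by a small set of adaptor and regulator proteins. The 10 genes described here encode that set, and are the 10 of the 13085 listed genes with the symbols Traf1, Traf2, Traf3, Traf5, Traf6, Birc2, Birc3, Map3k14, Tnfaip3 and Tank. They were chosen by symbol for their place in the CD40 pathway, but with earlier results of these data known. All 10 were listed and passed the filter on low values. Mouse monocytes of the C57BL/6 strain, with the genotype NFAM1+/+ or NFAM1-/-, had been cultured for 6 or 24 h either untreated or with IFN-γ and CD40L together (MegaCD40L, 1 µg/mL), and polyA RNA was sequenced without strand information. NFAM1 is a transmembrane receptor with an ITAM motif, and the NFAM1-/- mice carry a CRISPR deletion of exons 2 and 3 of the gene in every cell. The 16 libraries form 8 groups of 2, which are both genotypes without and with the stimulus at each time. The labels call the cells PBL Monocyte, whereas the methods describe an isolation from bone marrow. The study names fewer mice of each genotype than there are libraries, so libraries may share a mouse, and the labels tie no library to an animal. For this reason the spread between libraries may be technical in part and p-values that treat the libraries as independent may be too small. Because every stimulated library received both agents, the response to IFN-γ and the response to CD40L cannot be told apart here.

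As background, trimerised CD40 recruits TRAF2 and TRAF3 to its cytoplasmic tail, and TRAF6 binds a separate site on it. In resting cells TRAF3, TRAF2 and the ubiquitin ligases cIAP1 and cIAP2 hold the kinase NIK at a low level by marking it for degradation, and recruitment to CD40 releases NIK, which starts the non-canonical NF-κB pathway. TRAF6 and the cIAPs also build ubiquitin chains that activate the canonical pathway, and A20 and TANK are brakes on that pathway.

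The libraries held 48295939 to 88514341 reads on the listed genes, and a member had between 368 and 87435 reads in a library. Levels are given as CPM, read counts per library size, on the scale the authors deposited. On that scale the ratio of a library's reads to its scaled library size was 0.756 to 0.775 without and 1.24 to 1.32 with the stimulus at 6 h, and 0.776 to 0.788 without and 0.970 to 0.997 with it at 24 h. Scaling to the own total of each library therefore lowers every stimulus effect, and it moved the median log2 fold change of all genes tested from -0.13 to -0.86 at 6 h and from 0.01 to -0.33 at 24 h. All 9 monocyte markers on the list used were present, and their summed level was 22520 to 30660 CPM without and 8292 to 11580 CPM with the stimulus. Lyz2 was the largest part of that sum, at 15690 to 23260 CPM without and 2667 to 7390 CPM with the stimulus. The markers did not move together. Ly6c2 was higher with the stimulus, at 2125 to 2965 CPM against 345 to 530 CPM, and so was Fcgr1, while the others were lower. Of the B cell list, Cd79a, Cd79b and Ighm summed to 127 to 198 CPM without the stimulus, 311 to 371 CPM with it at 6 h and 34.5 to 42.4 CPM with it at 24 h, while Ms4a1 and Pax5 were not listed. The 9 neutrophil markers summed to 86.9 to 1135 CPM and were highest in the 4 unstimulated libraries at 24 h, and the dendritic cell markers to 19.6 to 288 CPM. The 2 listed markers of T cells, of 6, reached at most 6.81 CPM in sum, and none of the 5 markers of NK cells was listed. The part of these cells in the results was not tested, and in bulk RNA fewer cells of a type and less RNA per cell cannot be told apart.

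Nfam1 itself does not check the genotype labels. At 6 h without stimulus it stood at 432 and 408 CPM in the NFAM1+/+ libraries and at 299 and 321 CPM in the NFAM1-/- libraries, and with the stimulus at 133 and 129 CPM against 135 and 127 CPM. Reads of the exons outside the deletion can still be counted, so a level near that of NFAM1+/+ does not contradict the label. Libraries 44, 46, 56 and 58, all of 24 h, have opposite genotypes in the title and in the tag, so no genotype test was made at that time. Without stimulus at 24 h Nfam1 stood at 463 and 495 CPM in libraries 44 and 45, titled NFAM1+/+, and at 441 and 391 CPM in libraries 43 and 46, titled NFAM1-/-. With the stimulus it stood at 271 and 252 CPM in libraries 56 and 57, titled NFAM1+/+, and at 201 and 223 CPM in libraries 55 and 58, titled NFAM1-/-. By the tags, the NFAM1-/- libraries are 43 and 44, at 441 and 463 CPM between the other two, and 55 and 56, at 201 and 271 CPM on either side of the other two. By the titles, the NFAM1-/- libraries were below both NFAM1+/+ libraries in each state.

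Each member was higher or lower with IFN-γ plus CD40L at both times, and the direction was up for 9 members and down for Map3k14. The stimulus effect was tested with limma across 12782 genes, as the mean over both genotypes of 4 stimulated against 4 unstimulated libraries at each time. At 6 h 9 of 10 members rose (Benjamini-Hochberg adjusted p under 0.05 in limma), against 35.0% of all genes tested, and 7 of these rose at least 2-fold, against 19.1%. Map3k14 was the only member of the 10 to fall, where 43.3% of all genes fell and 20.6% fell at least 2-fold. At 24 h the same 9 members rose, against 38.3% of all genes, and 8 of them rose at least 2-fold, against 14.6%. Map3k14 fell again, where 36.5% of all genes fell and 18.7% fell at least 2-fold. The median log2 fold change of the 10 members was 1.53 at 6 h and 1.60 at 24 h, beside -0.13 and 0.01 for all genes tested. Tank, at 2.01-fold higher, and Map3k14, at 2.01-fold lower, lay close to the 2-fold threshold at 6 h. Leaving out 1 library at a time, their log2 fold changes ranged from 0.914 to 1.10 and from -1.08 to -0.94, on both sides of that threshold. These counts depend on the scaling as well. On own totals 4 members rose or fell at least 2-fold at 6 h, Traf3 fell, and Traf6 did not pass. Of all 12782 genes, 1562 rose and 5563 fell at least 2-fold at 6 h on that scaling.

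**Figure D1:**
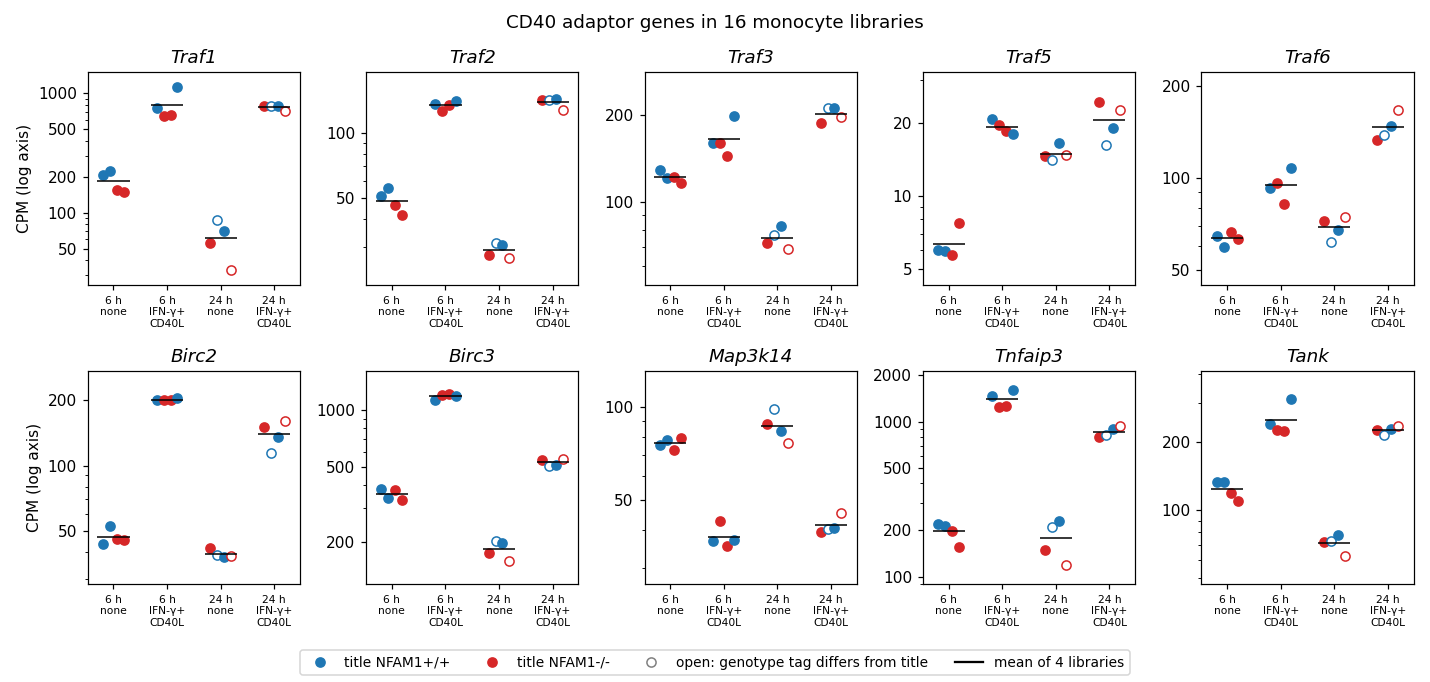
CPM of each adaptor gene (log axis) in the 16 libraries by time and stimulus, where colour is the genotype of the title, open points are libraries whose tag names the other genotype, and bars are means of 4 libraries. Stimulated and unstimulated libraries of the same time do not overlap, except for Traf5 at 24 h (16.2 against 16.5 CPM), and Map3k14 alone is lower with the stimulus.

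TNFAIP3, or A20, is a ubiquitin-editing enzyme that shuts down NF-κB signaling, and its gene had the largest rise of the 10 members at 6 h. Tnfaip3 read 220 and 214 CPM in the NFAM1+/+ libraries, against 198 and 155 CPM in NFAM1-/-, without stimulus at 6 h, and 1592 and 1470 CPM against 1249 and 1260 CPM with it. At 24 h it was between 119 and 228 CPM without and between 800.5 and 930 CPM with the stimulus. The lowest stimulated library was thus above 3 times the highest unstimulated library at each time. The log2 fold change was 2.83 ± 0.09 (SE; 7.11-fold; adjusted p = 8.25e-13, limma) at 6 h and 2.34 ± 0.09 (5.05-fold; adjusted p = 9.29e-12) at 24 h, and the fall between the times, -0.49, passed the test (adjusted p = 0.00249). That difference was lost under other scalings, at -0.10 when own totals of reads set the scale (adjusted p = 0.473) and 0.02 with quantile normalization (adjusted p = 0.915). It also missed the threshold with the libraries fitted as 4 groups of stimulus and time (adjusted p = 0.0719) and with genotypes from the tags (adjusted p = 0.0781).

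The upstream sequence of Tnfaip3 is shown because a match to the NF-κB consensus in it, in capitals, lies next to the start site. The 250 bases before the 5′-most RefSeq start were read from the GRCm38.p6 assembly for the members with a match (Tnfaip3, Tank and Traf3) and, for comparison, for Traf1 and Map3k14, the members with the largest rise and the only fall at 24 h. The authors' notes name the GRCm39 assembly, so these coordinates are not on their build.
Tnfaip3, chr10:19015411-19015660, minus strand: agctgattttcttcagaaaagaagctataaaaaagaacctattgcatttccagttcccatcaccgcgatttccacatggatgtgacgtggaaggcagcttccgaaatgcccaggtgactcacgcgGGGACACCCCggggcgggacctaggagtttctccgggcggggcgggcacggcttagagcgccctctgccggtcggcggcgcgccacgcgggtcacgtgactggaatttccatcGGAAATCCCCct
Tank, chr2:61578307-61578556, plus strand: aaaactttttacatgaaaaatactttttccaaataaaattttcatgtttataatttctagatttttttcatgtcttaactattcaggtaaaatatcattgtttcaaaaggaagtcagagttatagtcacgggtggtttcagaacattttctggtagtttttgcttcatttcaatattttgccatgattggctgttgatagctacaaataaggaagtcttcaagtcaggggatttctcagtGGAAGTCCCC
Traf3, chr12:111166120-111166369, plus strand: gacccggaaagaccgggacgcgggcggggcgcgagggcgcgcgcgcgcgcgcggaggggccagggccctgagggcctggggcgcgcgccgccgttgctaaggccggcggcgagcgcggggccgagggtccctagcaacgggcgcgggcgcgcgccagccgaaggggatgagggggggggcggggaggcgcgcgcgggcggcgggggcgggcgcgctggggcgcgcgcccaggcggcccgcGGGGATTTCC
Traf1, chr2:34961773-34962022, minus strand: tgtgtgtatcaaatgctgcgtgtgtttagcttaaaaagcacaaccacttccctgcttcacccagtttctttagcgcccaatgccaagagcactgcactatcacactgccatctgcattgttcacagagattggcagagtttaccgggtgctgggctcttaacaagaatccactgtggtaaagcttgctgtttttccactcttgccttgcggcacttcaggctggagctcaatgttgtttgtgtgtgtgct
Map3k14, chr11:103267402-103267651, minus strand: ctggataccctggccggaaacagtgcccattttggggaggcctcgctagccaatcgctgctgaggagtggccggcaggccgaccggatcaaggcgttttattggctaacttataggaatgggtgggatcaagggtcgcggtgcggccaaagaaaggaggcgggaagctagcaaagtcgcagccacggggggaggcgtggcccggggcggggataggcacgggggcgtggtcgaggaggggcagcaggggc
The NF-κB consensus, a motif of 10 letters that reads as itself on the other strand, was searched in windows from 250 bases before to 50 bases after each start. It matched 11.2% of all 32851 windows and 6 of the 15 windows of the members. Of these 6, 4 were windows of Tank that overlap in 2 pairs, each pair holding the same match. The matched windows belong to 3 of the 10 members, a count of genes for which no share over all genes was taken. Tnfaip3 held GGGACACCCC and GGAAATCCCC, beginning at bases -125 and -12 from the start, Tank held GGAAGTCCCC beginning at -10, and Traf3 held GGGGATTTCC beginning at -10. Downstream starts of Tank also held GGGGCTTTCC, at -72 and -127. The interferon motifs GAS (TTCNNNGAA) and ISRE (on both strands) were in 8.3% and 3.44% of all windows and in no window of a member. A match is a description of the letters, and its part in the responses was not tested. Traf1, Traf2, Traf5, Traf6, Birc2, Birc3 and Map3k14 held no match to the NF-κB consensus in the windows searched. Sequence outside these windows was not searched.

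TRAF1 is the TRAF without a RING domain, and forms complexes with TRAF2 and the cIAPs. Its gene rose 4.31-fold at 6 h (log2 fold change 2.11 ± 0.14, adjusted p = 6.91e-09, limma) and 13.1-fold at 24 h (3.71 ± 0.14, adjusted p = 1.73e-11), the largest fold of the 10 members at that time. Without stimulus at 6 h Traf1 stood at 207 and 222 CPM (NFAM1+/+) and at 156 and 148 CPM (NFAM1-/-), and with it at 1136 and 756 CPM (NFAM1+/+) and at 648 and 659 CPM (NFAM1-/-). The stimulated NFAM1+/+ library at 1136 CPM, number 26, stood above the other 3. At 24 h Traf1 lay between 33.0 and 87.2 CPM without and between 708 and 783 CPM with the stimulus. The stimulated level at 24 h against 6 h was -0.03 (95% interval -0.34 to 0.28, adjusted p = 0.849), but it was higher at 24 h on own totals, by 0.34 (adjusted p = 0.0329), and with quantile normalization, by 0.45 (adjusted p = 0.011). The unstimulated level fell by 1.64 on the log2 scale (adjusted p = 2.99e-07). The stimulus effect was larger at 24 h by 1.60 ± 0.20 (adjusted p = 9.54e-06).

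TRAF2 is the RING adaptor that brings the cIAPs to CD40. At 6 h without stimulus the NFAM1+/+ libraries had 51.0 and 55.8 CPM of Traf2 and the NFAM1-/- libraries 46.6 and 42.0 CPM, and with the stimulus at 140 and 136 CPM and at 125 and 134 CPM. At 24 h Traf2 lay between 26.7 and 31.2 CPM without and between 127 and 143 CPM with the stimulus. The stimulated levels at the 2 times differed by 0.05 (95% interval -0.07 to 0.16, adjusted p = 0.44), but the level at 24 h was higher by 0.42 on own totals (adjusted p = 4.54e-06) and by 0.29 with quantile normalization (adjusted p = 0.000284), and it was -0.13 centred on medians (adjusted p = 0.0526). The unstimulated level fell by 0.75 on the log2 scale (adjusted p = 4.05e-08), and the stimulus effect went from 1.46 ± 0.05 (adjusted p = 7.51e-12) to 2.25 ± 0.05 (adjusted p = 1.3e-13).

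TRAF3 holds NIK at a low level in resting cells and is itself degraded at activated CD40. Traf3 stood between 116 and 129 CPM in the 4 unstimulated libraries at 6 h, and with the stimulus at 197.5 and 160 CPM (NFAM1+/+) and 160 and 144 CPM (NFAM1-/-). The rise of 0.43 ± 0.06 (1.35-fold, adjusted p = 2.79e-05) was the smallest of the 9, and it depended on the scaling, since on own totals it fell by 0.30 (adjusted p = 0.000206), beside an all-gene median of -0.86, and with quantile normalization -0.09 (adjusted p = 0.116). At 24 h Traf3 was between 68.7 and 82.2 CPM without and between 187 and 212 CPM with the stimulus, a rise of 1.43 ± 0.06 (2.69-fold, adjusted p = 8.9e-11) that kept its direction under each scaling tried. The effect was larger at 24 h by 1.00 ± 0.09 (adjusted p = 4.15e-07).

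TRAF6 is the ubiquitin ligase shared by CD40, the IL-1 receptor and Toll-like receptors. Traf6 was between 59.8 and 67.0 CPM without and between 82.5 and 108 CPM with the stimulus at 6 h, and between 61.8 and 74.9 CPM and between 133 and 167 CPM at 24 h. The log2 fold change was 0.57 ± 0.08 (adjusted p = 1.3e-05) at 6 h and 1.08 ± 0.08 (adjusted p = 1.68e-08) at 24 h. On own totals, the 6 h value was -0.16 (adjusted p = 0.0553). Without stimulus its level differed by 0.12 between the times (95% interval -0.05 to 0.29, adjusted p = 0.209), and with the stimulus it was higher at 24 h by 0.63 (adjusted p = 4.82e-06).

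TRAF5, a close relative of TRAF2 and TRAF3 in receptor binding, had the lowest level of the 10 genes. Traf5 had 5.97 and 5.91 CPM (NFAM1+/+) and 5.73 and 7.74 CPM (NFAM1-/-) without stimulus at 6 h, and between 18.1 and 20.7 CPM with it. At 24 h it was between 14.1 and 16.5 CPM without and between 16.2 and 24.4 CPM with the stimulus. The library with the lowest stimulated value at 24 h was just under the highest unstimulated library, at 16.2 against 16.5 CPM. Among the members that rose with the stimulus, only Traf5 passed as higher at 24 h in unstimulated cells, by 1.246 ± 0.10 (adjusted p = 1.8e-07, limma). Its stimulus effect shrank from 1.61 ± 0.10 (adjusted p = 3.79e-09) to 0.44 ± 0.10 (adjusted p = 0.00154). On own totals, the 24 h value was 0.11 (adjusted p = 0.385).

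Birc2 and Birc3 encode cIAP1 and cIAP2, the ubiquitin ligases that TRAF2 carries, and are neighbours on chromosome 9 (7818227 to 7837064 and 7848699 to 7873186, minus strand, GENCODE vM21 on GRCm38). Birc2 was between 43.6 and 52.7 CPM without and between 199.5 and 205 CPM with the stimulus at 6 h, with the 4 stimulated libraries within 6 CPM of each other. At 24 h it was between 37.9 and 41.8 CPM and between 114.5 and 160 CPM. Birc3 was between 335 and 379 CPM without and between 1130 and 1211 CPM with the stimulus at 6 h, and between 158 and 200 CPM and between 505 and 549 CPM at 24 h. Birc2 rose 4.30-fold at 6 h (log2 fold change 2.10 ± 0.07, adjusted p = 1.16e-12) and 3.54-fold at 24 h (1.82 ± 0.07, adjusted p = 7.82e-12), and Birc3 rose 3.31-fold (1.73 ± 0.05, adjusted p = 8.96e-13) and 2.90-fold (1.54 ± 0.05, adjusted p = 4.59e-12). The stimulated level of Birc3 was lower at 24 h by 1.17 ± 0.05 on the log2 scale (adjusted p = 1.45e-10), and that of Birc2 by 0.54 ± 0.07 (adjusted p = 3.98e-06). Without stimulus Birc3 fell by 0.98 (adjusted p = 2.11e-09) and Birc2 by 0.26 (adjusted p = 0.00353). The stimulus effects at the 2 times differed by -0.28 for Birc2 (adjusted p = 0.0159) and -0.19 for Birc3 (adjusted p = 0.0369), and both differences turned positive on own totals, at 0.12 and 0.21, and with quantile normalization, at 0.07 and 0.42. The difference of Birc3 also missed the threshold without a variance trend (adjusted p = 0.0584), with 4 groups of stimulus and time (adjusted p = 0.107), with genotypes from the tags (adjusted p = 0.15), without the 4 libraries whose labels conflict (adjusted p = 0.101) and in 12 of the 16 fits that left out 1 library (adjusted p of 0.0501 to 0.103). That of Birc2 missed it with genotypes from the tags (adjusted p = 0.0613) and without those 4 libraries (adjusted p = 0.0653).

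Map3k14 encodes NIK, the kinase of the non-canonical pathway, whose protein is held low by the members above. Without stimulus at 6 h it stood at 75.6 and 78.1 CPM (NFAM1+/+) and 72.5 and 79.3 CPM (NFAM1-/-), and at 37.1 and 36.7 CPM and 42.8 and 35.5 CPM with it. By 24 h the range was 76.5 to 98.6 CPM without and 39.3 to 45.5 CPM with the stimulus. Over both times the highest stimulated library was at 45.5 CPM and the lowest unstimulated library at 72.5 CPM. The log2 fold change was -1.01 ± 0.08 (2.01-fold lower, adjusted p = 2.43e-08) at 6 h and -1.07 ± 0.08 (2.09-fold lower, adjusted p = 1.65e-08) at 24 h, with a difference of -0.06 (95% interval -0.29 to 0.18, adjusted p = 0.666). Map3k14 was the member for which the effects at the 2 times could not be told apart, although scaling to own totals gave 0.34 (adjusted p = 0.0126).

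TANK binds TRAFs and restrains TRAF6 and the IKK-related kinases. Tank stood at 134 and 133 CPM (NFAM1+/+) and 119 and 110 CPM (NFAM1-/-) without stimulus at 6 h, and at 311 and 241 CPM and at 226 and 224 CPM with it. The libraries at 24 h lay between 62.8 and 77.6 CPM without and between 216 and 236 CPM with the stimulus. The rise was 1.01 ± 0.07 (2.01-fold, adjusted p = 1.13e-08) at 6 h and 1.67 ± 0.07 (3.18-fold, adjusted p = 5.46e-11) at 24 h. The stimulated level at 24 h against 6 h was -0.13 (95% interval -0.28 to 0.02, adjusted p = 0.113), and its direction depended on the scaling, at 0.24 on own totals (adjusted p = 0.00323), 0.25 with quantile normalization (adjusted p = 0.00209) and -0.31 centred on medians (adjusted p = 0.0036). Without library 10 it was -0.22 (adjusted p = 0.00309). The unstimulated level fell by 0.79 on the log2 scale (adjusted p = 4.03e-07).

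**Figure D2:**
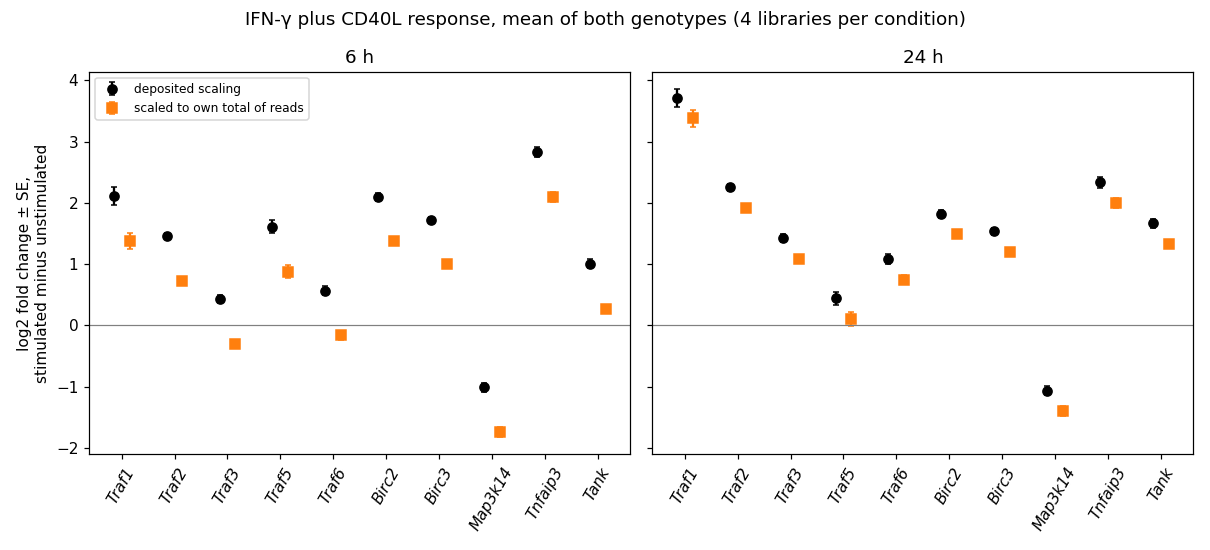
Log2 fold change ± SE of stimulated against unstimulated libraries at 6 h and 24 h for each adaptor gene, with the deposited scaling (circles) and with scaling to own totals (squares). At 6 h the squares of Traf3 and Traf6 lie below 0, at -0.30 and -0.16, and the signs of the other 8 genes are the same under both scalings.

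A difference in the stimulus effect between the times was common, and passed for 8588 of the 12782 genes tested. The effect was larger at 24 h for Tank, Traf1, Traf2, Traf3 and Traf6, against 35.2% of all genes that moved that way. It was smaller for Birc2, Birc3, Tnfaip3 and Traf5, against 32.0%, and Map3k14 passed in neither direction. The members with a larger effect at 24 h kept that direction under each scaling tried. Of those with a smaller effect only Traf5 did so. In unstimulated cells 6 members (Birc2, Birc3, Tank, Traf1, Traf2 and Traf3) were lower at 24 h than at 6 h, against 30.1% of all genes, and Traf5 was higher, against 34.3%. In stimulated cells Birc2, Birc3 and Tnfaip3 were lower at 24 h, against 36.7% of all genes, and Traf3 and Traf6 higher, against 39.7%. With quantile normalization Tnfaip3 no longer passed in that comparison (-0.16, adjusted p = 0.105), and Traf3 did not when centred on medians (0.12, adjusted p = 0.161). Scaled to own totals, all 10 members passed this last test, as did 10095 of the 12782 genes, and 7 of the members were higher at 24 h. That scaling moved the median of all genes from 0.04 to 0.42. No label gives a day or batch for the libraries, so time in culture and the handling of the 8 libraries of each time cannot be told apart.

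Levels of different genes were compared as mean CPM per kilobase of exon length (GENCODE vM21), over the 4 libraries of a condition. At 6 h without stimulus Birc3 was highest, at 71.5 ± 4.57 CPM per kilobase (SD, n = 4), followed by Tnfaip3 at 27.2 ± 4.05, Traf1 at 20.8 ± 4.18, Tank at 20.3 ± 1.90 and Traf3 at 16.6 ± 0.74. In this order the range of Tnfaip3 overlapped with that of Traf1, and that of Traf1 with that of Tank. Map3k14 was at 11.7 ± 0.46, Birc2 at 10.2 ± 0.87, Traf2 at 9.57 ± 1.16, Traf6 at 8.09 ± 0.39 and Traf5 at 1.39 ± 0.21, and each of these overlapped with its neighbour except Traf5. With the stimulus at 6 h the order began with Birc3 at 236 ± 7.40, Tnfaip3 at 193 ± 23.2 and Traf1 at 90.7 ± 26.0, whose ranges did not overlap, and Map3k14 at 5.80 ± 0.50 had dropped below Birc2 at 43.9 ± 0.54, Traf2 at 26.2 ± 1.23 and Traf6 at 12.0 ± 1.32. At 24 h with the stimulus Tnfaip3 led at 119 ± 8.75, with no overlap with Birc3 at 105 ± 4.47 or Traf1 at 86.4 ± 4.11. Without the stimulus at 24 h Map3k14 came, at 13.3 ± 1.41, next after Birc3 at 36.4 ± 3.96 and Tnfaip3 at 24.4 ± 7.08, and its range overlapped with that of Tank at 11.7 ± 1.02, while Traf1 was at 6.996 ± 2.61, below Birc2 and above Traf2.

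The comparison of NFAM1-/- with NFAM1+/+ asks whether the receptor changes the level of these adaptors, and no member passed it. At 6 h without stimulus 0 of 10 members passed, against 0.156% of all genes (20 of 12782). Of the members, Traf1, Traf2, Tnfaip3 and Tank had an unadjusted p under 0.05 in limma, where 1289 genes did. The values were -0.50 ± 0.20 for Traf1 (95% interval -0.94 to -0.06, adjusted p = 0.434), -0.27 ± 0.08 for Traf2 (-0.43 to -0.11, adjusted p = 0.216), -0.31 ± 0.12 for Tnfaip3 (-0.57 to -0.05, adjusted p = 0.405) and -0.22 ± 0.10 for Tank (-0.44 to -0.01, adjusted p = 0.48), NFAM1-/- minus NFAM1+/+. Those 4 genes were lower in both NFAM1-/- libraries than in both NFAM1+/+ libraries, which 20.3% of all genes were, and no member was higher in both, which 21.8% were.

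With the stimulus at 6 h 0 of 10 members passed, nor did any of the 12782 genes (0%), while 1862 genes had an unadjusted p under 0.05. Traf1 differed by -0.50 ± 0.20 (95% interval -0.94 to -0.07, adjusted p = 0.279), Traf3 by -0.23 ± 0.09 (-0.42 to -0.03, adjusted p = 0.275), Tnfaip3 by -0.29 ± 0.12 (-0.55 to -0.03, adjusted p = 0.30) and Tank by -0.28 ± 0.10 (-0.50 to -0.06, adjusted p = 0.248). The other 6 members had intervals that include 0, between -0.40 and 0.32 in all. Birc2, Tank, Tnfaip3, Traf1 and Traf2 were lower in both NFAM1-/- libraries, against 18.9% of all genes, and Birc3 was higher in both, against 23.5%. These values rested on which NFAM1+/+ library was used. Without library 10, leaving library 26 as the only stimulated NFAM1+/+ library at 6 h, Traf1 at -0.80 (adjusted p = 0.0409), Traf3 at -0.38 (adjusted p = 0.0191) and Tank at -0.47 (adjusted p = 0.00991) passed, and so did 972 genes in all. Without library 26 the same 3 values were -0.21, -0.07 and -0.10, with adjusted p of 0.944, 0.952 and 0.925, and 1 gene passed. The lone library is assumed to vary like the other groups in both fits. The difference in stimulus response between the genotypes had no member that passed and no gene that passed (0%; 1090 genes at an unadjusted p under 0.05), and the interval of that difference was -0.63 to 0.61 for Traf1, the widest of the 10 members.

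**Figure D3:**
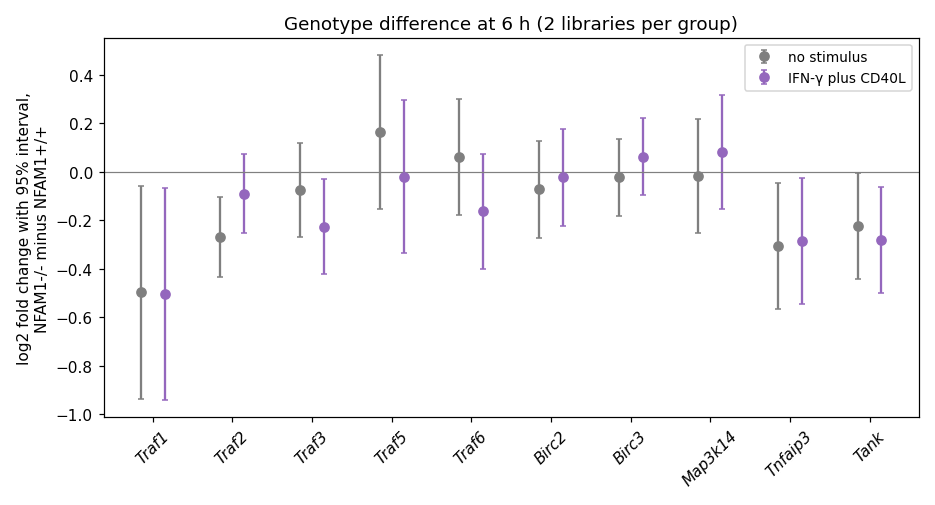
Log2 fold change with 95% interval of NFAM1-/- against NFAM1+/+ at 6 h for each adaptor gene, without stimulus (grey) and with IFN-γ plus CD40L (purple), 2 libraries per group. Traf1, Tnfaip3 and Tank lie below 0 in both states with intervals that reach close to 0, and no value passed after adjustment.

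At 24 h the members were read under both genotype labels, without a test. Unstimulated, Traf1 was at 87.2 CPM in library 44 and 70.8 CPM in library 45, whose titles say NFAM1+/+, and at 55.7 CPM in library 43 and 33.0 CPM in library 46, whose titles say NFAM1-/-. Tnfaip3 was at 210 and 228 CPM against 148 and 119 CPM in the same libraries. By the titles, Birc3, Tank, Tnfaip3, Traf1, Traf2 and Traf3 were lower in both NFAM1-/- libraries, against 23.5% of all genes, and Traf6 was higher, against 21.9%. By the tags, which give libraries 43 and 44 to NFAM1-/-, Traf5 was lower, against 11.7% of all genes, and Birc2 and Map3k14 were higher, against 13.8%. With the stimulus the titles put Traf1, Traf2 and Traf3 lower, against 23.2%, and Birc2, Birc3 and Traf5 higher, against 24.9%, whereas the tags put Map3k14, Tank, Tnfaip3 and Traf6 lower, against 14.5%, and no member higher, against 14.8%. Restricted to the libraries with the same genotype in both labels, 1 per group, Traf1 was at 55.7 CPM (NFAM1-/-) and 70.8 CPM (NFAM1+/+) without and at 776 and 783 CPM with the stimulus, and Tnfaip3 at 148 and 228 CPM and at 800.5 and 902 CPM.

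The other genes of the pathway were read as 7 lists, to be set beside all genes tested, of which 35.0% rose and 43.3% fell at 6 h (median log2 fold change -0.13) and 38.3% rose and 36.5% fell at 24 h (median 0.01). The receptor comes first: Cd40 stood between 46.1 and 67.3 CPM in the unstimulated and between 1403 and 1550 CPM in the stimulated libraries at 6 h, and between 20.04 and 27.0 CPM and between 841 and 948 CPM at 24 h. The log2 fold change was 4.62 at 6 h (adjusted p = 1.62e-15, limma) and 5.27 at 24 h (adjusted p = 1.3e-15), above that of any member. Of the 9 tested of 10 TNF receptor superfamily genes whose products bind TRAFs, 4 rose and 2 fell at 6 h (median -0.01) and 5 rose and 4 fell at 24 h (median 0.32). On own totals the balance at 6 h turned to 3 higher and 5 lower, with Ltbr changing direction, and at 24 h it was 4 and 4, with Tnfrsf1b changing direction. Tnfrsf12a, the receptor for TWEAK, rose by 2.40 at 6 h and fell by 0.46 at 24 h, and Tnfrsf11a, which encodes RANK, fell by 1.45 at 6 h and fell by 3.85 at 24 h. Tnfrsf13c, the BAFF receptor gene, fell by 4.54 at 24 h from 2.64 to 3.64 CPM to 0.0674 to 0.23 CPM, a low level throughout.

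Of the 9 remaining TRAF family and TRAF-binding genes 3 rose and 6 fell at 6 h (median -0.53, beside -0.13 for all genes), and 4 rose and 2 fell at 24 h (median 0.17, beside 0.01). On own totals 2 rose and 4 fell at 24 h, with Traf7 changing direction. Trafd1, an inhibitor of Toll-like receptor signaling that binds TRAF6, rose by 3.98 (adjusted p = 1.94e-16) and 2.17 (adjusted p = 1.04e-13), from 135 to 146 CPM to 2084 to 2313 CPM at 6 h. Traf3ip2, the adaptor of the IL-17 receptor, rose by 1.83 and Traf3ip3 fell by 1.96 at 6 h. At 24 h Tifa, which activates TRAF6, rose by 1.66, and Tifab, its inhibitory partner, fell by 1.76.

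Of the genes of the TANK partners 5 of 5 rose at both times, where 35.0% and 38.3% of all genes did, with medians of 2.09 and 1.46 beside -0.13 and 0.01. Optn, a ubiquitin-binding partner of TBK1, went from at most 22.6 CPM to between 148 and 183 CPM at 6 h, a rise of 3.11 (adjusted p = 1.28e-13), and rose by 3.05 at 24 h. Tbkbp1 rose by 2.23 and 1.63, Azi2 by 2.09 and 1.26, and the kinase gene Tbk1 by 1.54 and 1.46. With quantile normalization 4 of the 5 passed at 6 h, and no gene of this list changed direction under a scaling tried.

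Of the NF-κB subunits and inhibitors 11 of 11 were higher at 6 h (median 1.08) and 8 of 11 at 24 h (median 1.93). Nfkbie, an IκB gene, rose by 2.03 and 2.95, Nfkbib by 1.39 and Nfkbiz by 1.29 at 6 h, and Nfkb2, whose precursor protein is processed after NIK signaling, by 2.45 and Nfkbia by 2.38 at 24 h. Rel, Nfkb1 and Nfkbid were at -0.09, -0.06 and -0.05 at 24 h and did not pass. At 6 h the direction of Relb and Nfkbid turned when libraries were scaled to own totals, and that of Relb, Nfkb2 and Nfkbid with quantile normalization. At 24 h 3 of the 11 were lower on own totals.

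Among 13 genes of the ubiquitin chain, TAK1 and IKK machinery, 8 rose and 2 fell at 6 h (median 0.49) and 10 rose and 3 fell at 24 h (median 0.47). Rnf31, Rbck1 and Sharpin form the linear ubiquitin ligase LUBAC, and Rnf31 rose by 2.12 and 1.68 and Rbck1 by 1.18 at 6 h, while Ripk1 rose by 1.38 and 0.93. Ube2v1 rose by 1.08 at 24 h at a level of 0.36 to 1.39 CPM. Of 10 A20 partners and deubiquitinases 6 rose and 2 fell at 6 h (median 0.38) and 7 rose and 2 fell at 24 h (median 0.69), with N4bp1 at 1.69 and 2.24, the deubiquitinase gene Cyld at 1.35 and Tax1bp1 at 1.249 at 6 h, and the A20-binding Tnip1 at 1.76 and Otud7b at 1.56 at 24 h. Scaled to own totals, the medians of these lists at 6 h were -0.24 and -0.35, beside -0.86 for all genes, and Tab2, Tab3, Ube2n, Tnip1, Itch and Rnf11 turned from higher to lower.

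The other genes of the IAP family and IAP antagonists moved in both directions: 4 of 9 rose and 5 fell at 6 h (median -0.27), and 3 rose and 4 fell at 24 h (median 0.06). On own totals 2 rose and 7 fell at 6 h, with Diablo and Htra2 changing direction. Naip1, an inflammasome receptor gene, fell by 5.41 at 6 h from 7.19 to 10.49 CPM to 0.141 to 0.3005 CPM, and by 2.03 at 24 h. The paralogs Naip5 and Naip6 fell by 1.15 and 1.02 at 24 h, and because the Naip genes are near-identical copies, reads can be divided among them. Birc5, which encodes the mitotic protein survivin, fell by 1.41 and Birc6 rose by 1.19 at 6 h. No gene of the 7 lists passed in a genotype comparison.

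**Figure D4:**
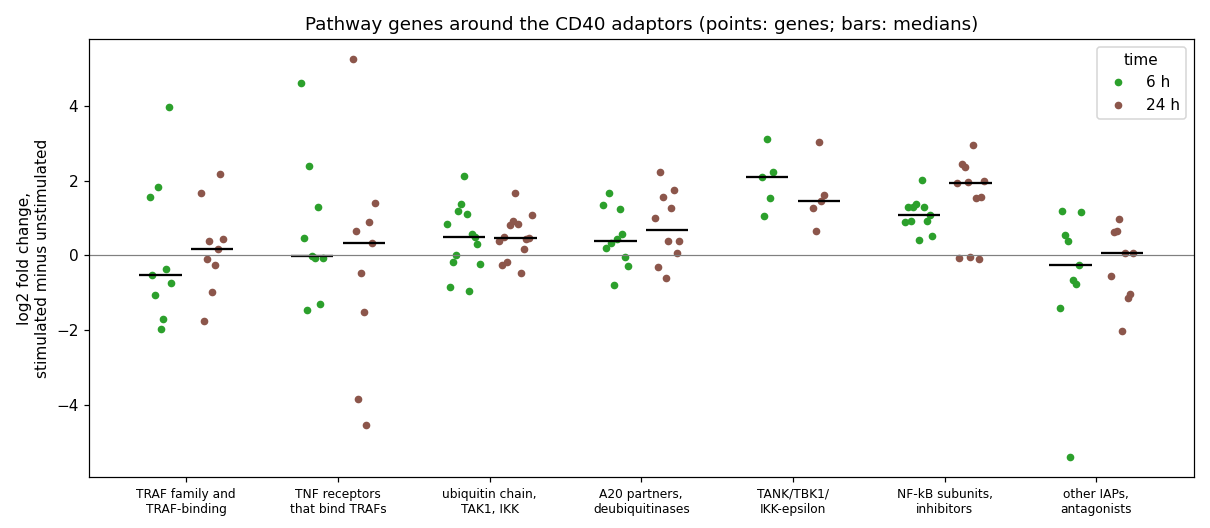
Log2 fold change of stimulated against unstimulated libraries at 6 h (green) and 24 h (brown) for the genes of 7 pathway lists, each point a gene and each bar the median of its list. The TANK, TBK1 and IKK-epsilon genes and, at 6 h, the NF-κB genes all lie above 0, while the other lists lie on both sides, with Cd40 highest at 4.62 and 5.27 and Naip1 lowest at 6 h at -5.41.

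Across the 16 libraries, which share the stimulus and time, the pattern of each member was set beside all other genes by Pearson's r of log2 CPM, as a description. Traf1 and Tank were among the 3 genes most like each other (r = 0.991). Traf1 was also close to Smpdl3b (0.993) and Nfkbia (0.99), and Traf2 was closest to Nfkbib and Nfkbie (both 0.996) and Trib3 (0.995). Traf3 was closest to Myo1g (0.989), Gda (0.988) and Nfkb2 (0.988). Birc2 was closest to Sbno2 (0.997), Sco1 (0.996) and Stxbp3 (0.995), and Birc3 to Cd47 (0.996), Rbl1 (0.995) and Ccdc25 (0.993). Tnfaip3 was closest to Nod2 (0.993), Socs3 (0.99) and Prdx5 (0.99), and Tank, after Traf1, to 2810474O19Rik (0.99) and Ms4a4d (0.989). Traf5 and Traf6 had less close neighbours, with Ppargc1b (0.979), Panx1 (0.972) and Ccdc6 (0.966) for Traf5 and Tspan33 (0.977), Acsl1 (0.976) and Tmem39a (0.974) for Traf6. Map3k14 was closest to Prkch (0.987), Gm45606 (0.983) and Gsn (0.982). Among the members themselves r was 0.98 between Birc2 and Tnfaip3, 0.984 between Traf1 and Traf2, and 0.33 between Traf3 and Traf5, while that of Map3k14 with the other 9 was negative throughout, from -0.635 with Traf5 to -0.967 with Birc2.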

How the data were processed

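The values the authors deposited are log2 CPM of 13085 genes in 16 libraries. The authors aligned non-stranded paired reads by STAR, took counts per gene by Rsubread and scaled them by edgeR. The notes name the GRCm39 build, and tool versions are not given in the sources used here. All values returned whole reads (tolerance 0.01) once 0.5 reads were taken off and a scaled size of the library multiplied in, which gave the depths. Without strand, reads from antisense genes cannot be told apart.

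The 12782 genes that reached 1 CPM in 2 or more libraries (303 left out) were fitted with limma 3.58.1 in R 4.3.3, with 8 groups from the titles, 8 residual degrees of freedom and a prior variance that follows mean level. Genes passed at a Benjamini-Hochberg adjusted p under 0.05, and the 2-fold threshold of the study was used for calls. The members and the lists were chosen with earlier results of these data known. All 10 members were named, with the 3 genes of largest absolute change from each list in each stimulus comparison, listed genes that passed in a genotype comparison, the 3 genes most like each member, and Nfam1. A gene named for 1 time may be given for both. Sharpin, Tab2, Tab3, Ube2n, Itch, Rnf11, Relb, Nfkbid, Rel, Nfkb1, Ltbr, Tnfrsf1b, Traf7, Diablo and Htra2 were named after their values were seen. The procedure was tested on simulated data. Alternatives covered filters, pseudocount, scaling, weights, prior variance, libraries and genotype labels. Among the symbols 17 appear as dates and 1 is duplicated. The study's methods also describe cells given IFN-γ alone, but none of the 16 libraries is of that condition. Promoter windows were from RefSeq on GRCm38.p6, with all 10 members matched by symbol.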

Additional observations from a re-analysis of the deposited data

Results flagged for a closer look

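In 40 sets of 4 libraries (10 members in 4 conditions), 3 held a library whose gap to its nearest neighbour was a share of the set's range above Dixon's 95% critical value, which chance passes in about 1 of 20 sets. Traf1 at 708.1 CPM and Traf2 at 127.2 CPM were both low in stimulated library 58 at 24 h, whose title and genotype tag name opposite genotypes, and Traf5 was high, at 7.74 CPM, in unstimulated NFAM1-/- library 4 at 6 h.

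The stimulus effect differed between 24 h and 6 h for 9 members by the test of the difference itself (limma, adjusted p of 4.15e-07 to 0.0369). The difference in log2 fold change was positive for Traf1 (1.605), Traf3 (0.9959), Traf2 (0.7939), Tank (0.6624) and Traf6 (0.515), and negative for Traf5 (-1.168), Tnfaip3 (-0.4938), Birc2 (-0.2804) and Birc3 (-0.1889). The negative differences of Tnfaip3, Birc2 and Birc3 were lost or turned under several alternatives: the adjusted p was 0.0719 to 0.0781 for Tnfaip3 with 4 groups or the genotype tags, 0.0613 to 0.0653 for Birc2 with the tags or without the 4 libraries whose labels conflict, and 0.0584 to 0.15 for Birc3 in 4 alternatives, and with quantile normalization the 3 values were 0.02, 0.07 and 0.42. The part of library handling at each time in these differences was not tested.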

How the results depend on the processing

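The stimulus effect at 24 h kept its direction for all 10 members under every alternative, and at 6 h under all but the scalings below. The cause of the changes was not tested, except that scaling to own totals shifts all genes of a library together. With own totals 4 members were called at 6 h, as were 7125 of 12782 genes, and 4 in the difference between times, as were 4805 genes. All 10 members passed in time with stimulus, as did 10095 genes. On that scaling the share of higher genes among those called went from 48.1% to 21.9% at 6 h and from 43.9% to 30.4% at 24 h. It went from 42.1% to 67.4% for the difference between times and from 49% to 69.3% for time with stimulus. At 6 h Traf3 was -0.301 and Traf6 -0.163. The difference between times was 0.117 for Birc2, 0.2085 for Birc3 and 0.3411 for Map3k14, and time with stimulus 0.3417 for Traf1 and 0.243 for Tank. With quantile normalization 5 members were called in the difference between times, as were 3805 genes, and 0 in time with stimulus, where 3895 genes were. Traf3 at 6 h was -0.09484, the difference between times 0.07389 for Birc2, 0.4184 for Birc3 and 0.01622 for Tnfaip3, time with stimulus 0.4474 for Traf1, -0.07053 for Traf5 and 0.2538 for Tank, the genotype effect 0.003971 for Map3k14 without and 0.01345 for Birc2 with stimulus, and the interaction 0.09588 for Traf1 and 0.02796 for Tank. Centred on medians, time with stimulus was -0.1284 for Traf2, -0.09661 for Traf5 and -0.05337 for Map3k14, and the interaction of Tnfaip3 -0.0002446; the share of higher genes among those called was 32.8% for the difference between times and 37.8% for time with stimulus. Without the 4 libraries with 2 genotype labels, time with stimulus was 0.00238 for Traf1.

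The difference between times no longer passed for Birc3 without a variance trend, with 4 groups, with the genotype tags, without the 4 libraries with 2 genotype labels and in 12 of 16 fits without 1 library (adjusted p of 0.0501 to 0.15), for Birc2 with the tags and without those 4 libraries (0.0613 and 0.0653), and for Tnfaip3 with 4 groups and with the tags (0.0719 and 0.0781). Time with stimulus passed for Traf2 on own totals (0.4202) and with quantile normalization (0.2856).

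Leaving out 1 library at a time, the difference between times of Map3k14 ranged from -0.1239 to 0.01131 and time with stimulus of Traf1 from -0.1783 to 0.1153. The genotype effect without stimulus ranged from -0.05239 to 0.3813 for Traf5, -0.2088 to 0.06475 for Birc2, -0.1076 to 0.06131 for Birc3 and -0.08426 to 0.04522 for Map3k14. With stimulus it ranged from -0.1192 to 0.07817 for Traf5 and -0.05526 to 0.2152 for Map3k14, and 0 to 3 members passed. The interaction ranged from -0.2991 to 0.2881 for Traf1, -0.3045 to 0.0005635 for Traf3, -0.4018 to 0.0319 for Traf5, -0.0877 to 0.1859 for Birc2, -0.03574 to 0.2347 for Map3k14, -0.1553 to 0.1966 for Tnfaip3 and -0.2435 to 0.1261 for Tank.

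Over all genes, a mean of at least 5 CPM lowered the calls from 5069 to 3275 at 6 h, 4256 to 2554 at 24 h, 4024 to 2658 for the difference between times, 2684 to 1446 for time without stimulus (1755 with log2(CPM + 1)) and 4308 to 2746 for time with stimulus. Own totals gave 7125 at 6 h. In the genotype comparison without stimulus 20 genes passed, 7 to 53 under alternatives and 1 to 44 without 1 library, and 11 were called, 4 to 15 and 1 to 40. With stimulus 0 passed, 0 to 5 under alternatives and 0 to 972 without 1 library, and 0 were called, 0 to 4 and 0 to 126. In the interaction 0 passed or were called, 0 to 1 under alternatives, and without 1 library 0 to 196 passed and 0 to 55 were called. No paired analysis was possible because no group shares a library number with another and the labels tie no library to a mouse, although libraries may share mice, and a fit with the mouse as a block could change the p-values.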
